A study of Mus musculus with 17 samples.

Results

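The genes described are 10 genes of bone morphogenetic protein (BMP) signalling, taken by gene name from the deposited expression table. They are the ligands *Bmp2*, *Bmp4* and *Bmp7*, the target genes *Id1*, *Id2* and *Id3*, the inhibitory Smad *Smad6*, the receptor-activated Smad *Smad9*, the membrane pseudoreceptor *Bambi* and the secreted modulator *Bmper*. They make up 10 of the 54532 gene identifiers in the table, and all 10 were among the 21871 genes tested, those that reached 1 TPM (a length-corrected abundance unit that sums to the same total in each library) in 2 or more libraries. The cells were mouse embryonic stem cells (mESCs) labelled R1, named R1/E in the study's methods, a line from a mouse blastocyst that self-renews in culture. RNA was sequenced from wild-type (WT) and *Usb1* knockout (KO) cells at day 0, 1 and 3 of differentiation with retinoic acid (RA), where day 0 is the self-renewal condition. WT cells at day 0 had 2 libraries and the other 5 groups had 3 libraries each, 17 in all. The KO libraries came from a single CRISPR/Cas9 line, KO-1, so the knockout and differences between clones cannot be told apart.

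BMP ligands are secreted dimers that bind a complex of type I and type II receptors, which phosphorylates Smad1, Smad5 or Smad9 so that they enter the nucleus with Smad4. The Id genes are classical direct targets, and their proteins hold E proteins (Tcf3, Tcf4 and Tcf12) in dimers that cannot bind DNA. In mESCs, BMP4 acting through Id proteins is known to hold back neural commitment and to help self-renewal together with LIF. *Smad6* and *Bambi* are themselves induced by BMP and restrain the receptors, which closes a negative feedback loop.

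The members lie at separate loci (GRCm38, GENCODE M21 gene models). *Bmp4* lies on the minus strand at chr14:46383520-46390669, *Bmp2* on the plus strand at chr2:133552159-133562885 and *Bmp7* on the minus strand at chr2:172868012-172940321. *Id1* is on the plus strand at chr2:152736251-152737410, *Id2* on the minus strand at chr12:25093799-25097140 and *Id3* on the plus strand at chr4:136143497-136145755. *Smad6* is on the minus strand at chr9:63953076-64022059, *Smad9* on the plus strand at chr3:54755582-54801257 and *Bmper* on the plus strand at chr9:23223076-23485200.

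The 250 bases upstream of the RefSeq gene start (GRCm38.p6) are shown for *Bmp4*, the member called lower from day 0 to day 1 in both genotypes, and for *Smad6* and *Smad9*, a pair that rose in RA. Each is read 5′ to 3′ on the gene's strand. They lie at chr14:46390670-46390919 (minus strand), chr9:64022060-64022309 (minus strand) and chr3:54755332-54755581 (plus strand), and none of their bases is in an annotated exon. Capitals mark a match to GGCGCC, a GC-rich element known to bind BMP Smads, or to GTCTG, which holds the core of the Smad-binding element and reads CAGAC on the opposite strand.
Bmp4: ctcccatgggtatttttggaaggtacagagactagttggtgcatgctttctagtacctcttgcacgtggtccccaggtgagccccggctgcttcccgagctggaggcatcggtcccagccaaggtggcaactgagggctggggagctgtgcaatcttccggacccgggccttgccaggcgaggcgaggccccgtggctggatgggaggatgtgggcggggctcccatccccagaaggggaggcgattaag
Smad6: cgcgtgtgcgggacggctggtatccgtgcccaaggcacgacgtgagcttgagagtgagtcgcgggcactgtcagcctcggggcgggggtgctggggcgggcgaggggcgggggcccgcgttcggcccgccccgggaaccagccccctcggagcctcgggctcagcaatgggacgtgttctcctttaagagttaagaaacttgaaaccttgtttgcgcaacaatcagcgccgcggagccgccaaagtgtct
Smad9: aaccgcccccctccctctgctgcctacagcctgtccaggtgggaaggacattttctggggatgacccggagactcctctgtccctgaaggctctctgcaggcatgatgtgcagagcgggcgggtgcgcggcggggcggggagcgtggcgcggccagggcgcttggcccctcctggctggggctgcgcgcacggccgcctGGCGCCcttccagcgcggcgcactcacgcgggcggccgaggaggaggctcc
*Smad9* holds 1 GGCGCC, which reads the same on both strands, and no GTCTG. *Bmp4* and *Smad6* hold neither in this window. Of the 6 members with an entry, *Id2* also holds 1 GGCGCC, *Id3* holds 2 GTCTG and *Bmper* holds neither, while *Id1*, *Bmp2*, *Bmp7* and *Bambi* had no entry. In the M21 gene models, 161 of the 250 bases of the *Id2* window and all 250 of the *Id3* window lie in exons of the gene itself. Those 2 windows are thus not wholly upstream of these gene models. Among 32851 promoter windows of the same length, 9.59% hold GGCGCC and 42.2% hold GTCTG. The GC content of the 6 windows was 62.8% to 73.2%, against a median of 52.4% over all windows. These matches describe letters in a window and not binding.

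Reads on genes, recovered from TPM, numbered 15404380 to 17300189 per library. WT replicate 1 at day 0 stood apart: 239 of its genes had 1 read, against 1352 in WT replicate 2 at day 0, 1224 in KO replicate 1 at day 3 and 2150 to 2467 in the other 14 libraries. Values that rest on WT cells at day 0 are also given without that replicate for the members' first step, their day 0 difference and their first interaction, except *Bmp2* and *Bmper*, which had few reads. The targeted gene, *Usb1*, was at 32.0 to 56.9 TPM in the WT libraries and at 14.7 to 21.4 TPM in the KO libraries, so its mRNA was lower and still present. The 8 pluripotency markers (*Pou5f1*, *Nanog*, *Sox2* and others) averaged at least 1 TPM in every group, and their summed TPM fell from 9188 to 10020 at day 0 to 1051 to 1798 at day 3. In bulk RNA, fewer cells of a type and less RNA per cell cannot be told apart.

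The members differed widely in TPM. *Id1* was the highest member in every group, from 284 ± 26.0 TPM (SD, n = 3) in KO cells at day 0 to 826 ± 40.8 TPM (n = 3) in WT cells at day 1. Its mean stood at the percentiles 97.45 to 99.41 of the tested genes. At day 0, *Bmp4* came next in WT cells (121 ± 4.08 TPM, n = 2), followed by *Id3* and *Id2*. *Smad6*, *Bambi* and *Bmp7* were at 2.70 to 12.1 TPM in the WT libraries at day 0 and their ranges overlapped. At day 3 the order in WT cells was *Id1*, *Id3*, *Id2*, *Smad6*, *Bambi* and *Bmp4*, with no overlap between neighbours, followed by *Smad9* and *Bmp2*, which overlapped, then *Bmper* and *Bmp7*. In KO cells at day 3, *Smad6* (97.2 to 112 TPM) overlapped *Bambi* (93.7 to 97.6 TPM), and *Bmp2* overlapped *Bmp7*.

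**Figure D1:**
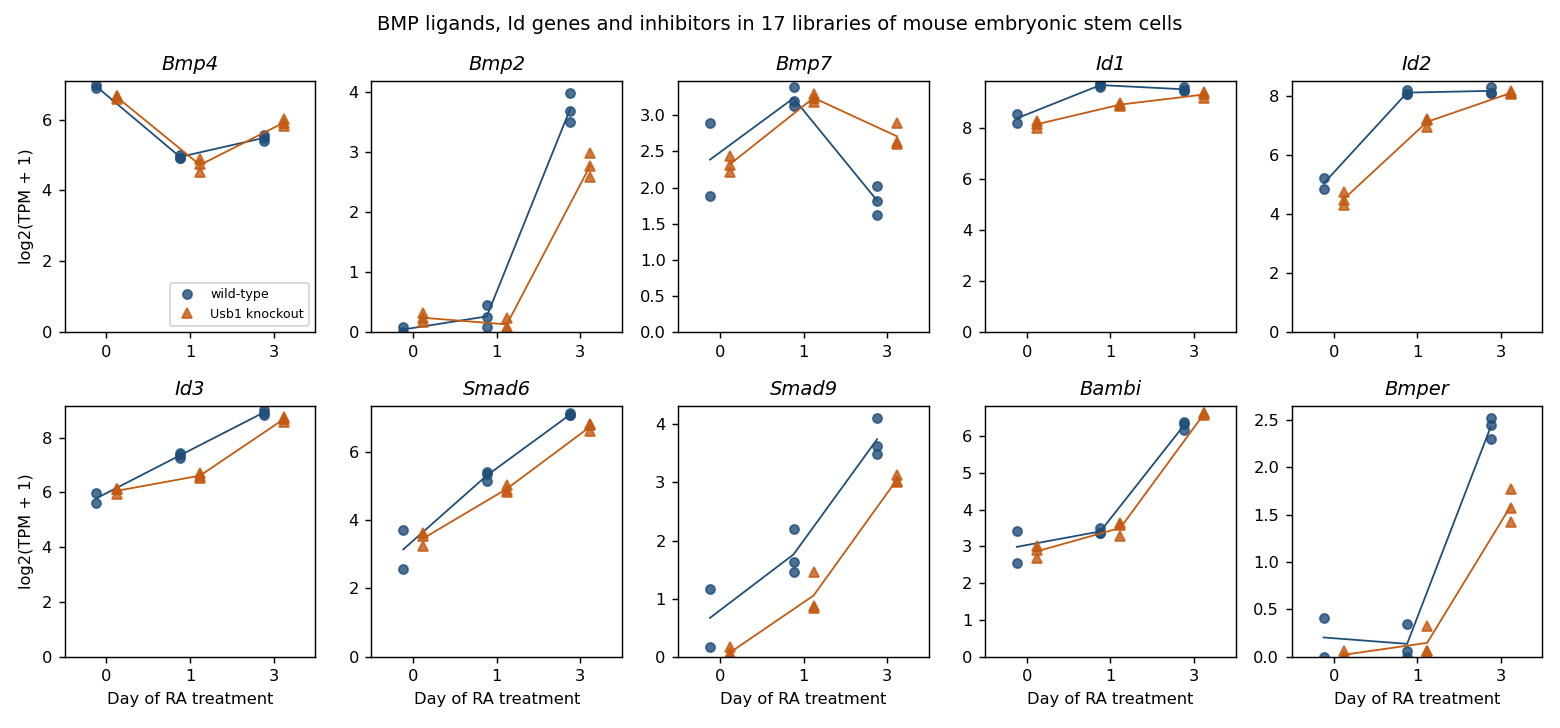
Expression of the 10 members in each of the 17 libraries, as log2(TPM + 1) against day of RA treatment (days drawn at equal spacing). Points are libraries, lines join group means on this scale, and the vertical scale differs between genes. *Bmp4* fell from 94.6 to 124 TPM at day 0 to 21.9 to 30.7 TPM at day 1, and *Smad6* rose to 97.2 to 138 TPM at day 3.

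Differences were tested with limma on log2(TPM + 1) across all 21871 genes, with Benjamini-Hochberg adjustment. A member "passed" at an adjusted p under 0.05 and was "called" if it also changed at least 2-fold. The added 1 makes changes of weakly expressed genes look smaller. The p-values measure the spread between libraries, which the study's methods call independent biological replicas. Groups that did not overlap are named as a description, and the share of all genes with such groups was not counted.

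Most of the members changed in WT cells over the days of RA treatment. No untreated cells were sequenced at day 1 or day 3, so RA and time out of the self-renewal condition cannot be told apart. From day 0 to day 1, 6 of 10 members were called, 5 higher and 1 lower, against 13.9% of all genes (9.99% higher and 3.88% lower). From day 1 to day 3, 7 were called, 6 higher and 1 lower, against 15.2% of all genes (7.7% and 7.54%). From day 0 to day 3, 9 were called, 8 higher and 1 lower, against 25.8% of all genes (16.1% and 9.68%). The median log2 fold change of the members was 0.97, 1.67 and 3.10 in these comparisons, against 0.18, −0.07 and 0.10 over all genes tested. Without WT replicate 1 at day 0, the change of *Id1* from day 0 to day 3 was 0.95, under 2-fold. Without WT replicate 2, that of *Smad9* from day 0 to day 1 was 0.59, under 2-fold as well. In such fits the remaining WT library at day 0 is assumed to vary like the other groups, so no counts of members are given for them here.

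In KO cells, 3 members were called from day 0 to day 1 (2 higher and 1 lower, against 6.95% of all genes, 4.07% higher and 2.87% lower). From day 1 to day 3, 7 were called, all higher, against 15.3% of all genes (9.6% higher). From day 0 to day 3, 8 were called, all higher, against 21.9% of all genes (13.8% higher). The median log2 fold change of the members was 0.71, 1.63 and 2.58, against 0.02, 0.04 and 0.03 over all genes. More members passed at the first step than were called in KO cells: 7 rose and 1 fell at an adjusted p under 0.05 alone, against 27.7% of all genes (16% higher and 11.7% lower).

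Of the ligands, *Bmp4* was the most abundant throughout and the one called lower from day 0 to day 1. WT cells had 118 and 124 TPM at day 0, 29.3, 30.7 and 29.4 TPM at day 1 and 41.3, 43.6 and 46.0 TPM at day 3. KO cells had 94.6, 101 and 101 TPM at day 0, 26.0, 28.5 and 21.9 TPM at day 1 and 58.6, 55.3 and 63.6 TPM at day 3. In both genotypes the 3 days did not overlap, with day 0 highest and day 1 lowest. The log2 fold change from day 0 to day 1 was −1.99 (SE 0.09, adjusted p = 1.00e-09, limma) in WT cells and −1.92 (SE 0.08, adjusted p = 5.96e-10) in KO cells. From day 1 to day 3 *Bmp4* rose by 0.53 in WT cells (adjusted p = 8.59e-05) and by 1.19 in KO cells (adjusted p = 2.31e-08, limma). It stayed below its day 0 level, by −1.45 in WT and −0.73 in KO cells on the log2 scale.

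*Bmp7*, a ligand expressed in many embryonic epithelia, peaked at day 1. WT cells had 6.41 and 2.70 TPM at day 0, 9.46, 8.19 and 7.73 TPM at day 1 and 3.06, 2.52 and 2.08 TPM at day 3. KO cells had 3.99, 3.65 and 4.43 TPM at day 0, 8.81, 8.47 and 8.12 TPM at day 1 and 5.06, 6.46 and 5.19 TPM at day 3. All 6 libraries of day 1 were above all other libraries. In KO cells the rise from day 0 to day 1 was 0.92 (SE 0.21, adjusted p = 0.00385, limma). The fall from day 1 to day 3 was −1.42 in WT cells (SE 0.21, adjusted p = 5.03e-05, limma) and −0.53 in KO cells (SE 0.21, adjusted p = 0.0485), and the latter lost its adjusted p under 0.05 without any 1 of 5 of the 6 KO libraries compared. The 2 WT libraries at day 0 differed by more than those of any other group, and the rise to day 1 of 0.85 (adjusted p = 0.0095) was 1.35 without WT replicate 1 at day 0 and 0.35 (adjusted p = 0.157) without WT replicate 2.

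*Bmp2*, which in the embryo is made by the visceral endoderm among other tissues, was near the detection limit until day 3. At day 0 it had 0 and 1 reads in the WT libraries and 2, 3 and 4 reads in the KO libraries. At day 1 it had 6, 1 and 3 reads in WT and 1, 3 and 1 reads in KO libraries, where 3 reads are the limit that a count of 0 allows. At day 3 it reached 10.3, 11.8 and 14.8 TPM in WT cells and 5.77, 6.92 and 4.97 TPM in KO cells, which is 83 to 226 reads. The rise from day 1 to day 3 was called in both genotypes (adjusted p = 1.03e-09 in WT and 1.76e-08 in KO cells, limma).

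The Id genes, whose proteins block E-protein transcription factors, rose in RA in different steps. For *Id1*, WT cells had 292 and 379.8 TPM at day 0, 785, 825 and 866 TPM at day 1 and 720.2, 789 and 700.3 TPM at day 3. KO cells had 256, 289 and 308 TPM at day 0, 464, 482 and 512 TPM at day 1 and 689.8, 649.5 and 579 TPM at day 3. The WT libraries of day 1 and day 3 overlapped, whereas in KO cells each day lay above the one before. The change from day 0 to day 1 was 1.31 (SE 0.11, adjusted p = 3.99e-07, limma) in WT cells and 0.77 (SE 0.10, adjusted p = 2.91e-05) in KO cells. From day 1 to day 3 it was −0.17 (adjusted p = 0.193) in WT and 0.39 (adjusted p = 0.00383) in KO cells, the latter 0.17 (adjusted p = 0.377) when libraries were scaled to an equal median.

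*Id2* had the largest rise of the members in the first step on the log2(TPM + 1) scale. With a pseudocount of 0.1, *Smad9* rose by 2.98 and *Id2* by 2.67 at that step in KO cells, and with voom on the recovered reads by 4.30 and 2.70. WT cells had 27.7 and 36.1 TPM at day 0, 265, 265 and 294 TPM at day 1 and 272, 314 and 274 TPM at day 3. KO cells had 18.7, 25.8 and 21.01 TPM at day 0, 145, 123 and 147 TPM at day 1 and 284, 263 and 269 TPM at day 3. WT cells at day 1 already overlapped their day 3 range, while KO cells at day 1 lay between their day 0 and day 3 ranges. The first step was 3.08 (SE 0.13, adjusted p = 4.30e-10, limma) in WT and 2.62 (SE 0.12, adjusted p = 8.17e-10) in KO cells, and the second was 0.06 (adjusted p = 0.725) in WT and 0.97 (SE 0.12, adjusted p = 6.62e-06) in KO cells. Without WT replicate 1 at day 0, the first step in WT cells was −2.02 for *Bmp4*, 1.12 for *Id1*, 2.89 for *Id2* and 1.75 for *Id3*, and each was still called.

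*Id3* rose at both steps and more at the second in KO cells. WT cells had 61.6 and 47.6 TPM at day 0, 154, 162 and 172 TPM at day 1 and 481, 510.0 and 454 TPM at day 3. KO cells had 59.9, 68.3 and 68.8 TPM at day 0, 96.3, 92.2 and 102 TPM at day 1 and 434, 409 and 378 TPM at day 3. The 3 days did not overlap in either genotype. The first step was 1.57 (SE 0.10, adjusted p = 3.05e-08, limma) in WT and 0.56 (SE 0.09, adjusted p = 2.96e-04) in KO cells. The second was 1.56 (SE 0.09, adjusted p = 3.30e-09) in WT and 2.06 (SE 0.09, adjusted p = 1.64e-10) in KO cells.

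*Smad6*, which competes with receptor-activated Smads and blocks type I receptors, rose at both steps. WT cells had 4.96 and 12.1 TPM at day 0, 41.5, 34.6 and 39.6 TPM at day 1 and 134, 134 and 138 TPM at day 3. KO cells had 10.5, 8.49 and 11.4 TPM at day 0, 31.8, 27.3 and 28.6 TPM at day 1 and 109, 112 and 97.2 TPM at day 3. The days did not overlap in either genotype, and the 2 WT libraries at day 0 lay on either side of the KO libraries. Both steps were called in both genotypes, at 2.16 and 1.79 in WT cells (adjusted p = 3.64e-06 and 3.66e-06, limma) and 1.45 and 1.82 in KO cells (adjusted p = 7.37e-05 and 2.94e-06). The first step in WT cells was 1.60 without WT replicate 1 at day 0 and 2.73 without WT replicate 2.

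*Smad9* encodes a receptor-activated Smad of the BMP branch that is a weak activator and can restrain the pathway. Its level at day 0 rested on few reads: 32 and 3 in the WT libraries and 1, 0 and 3 in the KO libraries. It was at 3.60, 1.74 and 2.09 TPM in WT and 1.74, 0.831 and 0.787 TPM in KO cells at day 1. Day 3 brought 11.3, 10.2 and 16.3 TPM in WT and 6.999, 7.17 and 7.77 TPM in KO cells, above every earlier library. In KO cells the change from day 0 to day 1 was 0.98 (SE 0.28, adjusted p = 0.0154, limma), and 0.78 (adjusted p = 0.0777) without KO replicate 1 at day 1. The rise from day 1 to day 3 was 1.98 (SE 0.28, adjusted p = 3.16e-05, limma) in WT and 2.00 (SE 0.28, adjusted p = 2.84e-05) in KO cells. Its call in WT cells from day 0 to day 1 (1.09, adjusted p = 0.0118) was 1.59 without WT replicate 1 at day 0, and was lost without WT replicate 2 at day 0 (0.59, adjusted p = 0.161) or WT replicate 1 at day 1 (0.87, adjusted p = 0.0505).

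*Bambi*, a transmembrane protein related to type I receptors that lacks the kinase domain, rose mostly from day 1 to day 3. WT cells had 9.80 and 4.84 TPM at day 0, 10.3, 9.35 and 9.22 TPM at day 1 and 79.5, 82.8 and 70.2 TPM at day 3. KO cells had 5.42, 6.52 and 7.06 TPM at day 0, 11.1, 11.3 and 8.84 TPM at day 1 and 97.6, 97.2 and 93.7 TPM at day 3. The genotypes overlapped at day 0 and day 1, and every day 3 library was far above every earlier one. The first step in WT cells was 0.42 (adjusted p = 0.102, limma), 0.86 (adjusted p = 6.40e-04) without WT replicate 1 at day 0, and −0.02 (adjusted p = 0.929) without WT replicate 2. In KO cells the first step was 0.64 (SE 0.17, adjusted p = 0.0124, limma), and 0.54 (adjusted p = 0.0572) without KO replicate 1 at day 0. The rise from day 1 to day 3 was 2.88 (SE 0.17, adjusted p = 4.81e-09, limma) in WT and 3.10 (SE 0.17, adjusted p = 2.31e-09) in KO cells.

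*Bmper*, a secreted protein that binds BMPs and modulates their access to receptors, had 0 to 7 reads in every library of day 0 and day 1. The day 3 libraries had 3.94, 4.46 and 4.75 TPM in WT and 1.68, 1.98 and 2.42 TPM in KO cells, from 42 to 102 reads. All day 3 libraries lay above all earlier ones, and the rise from day 1 to day 3 was called in both genotypes (adjusted p = 1.12e-07 in WT and 1.27e-05 in KO cells, limma).

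**Figure D2:**
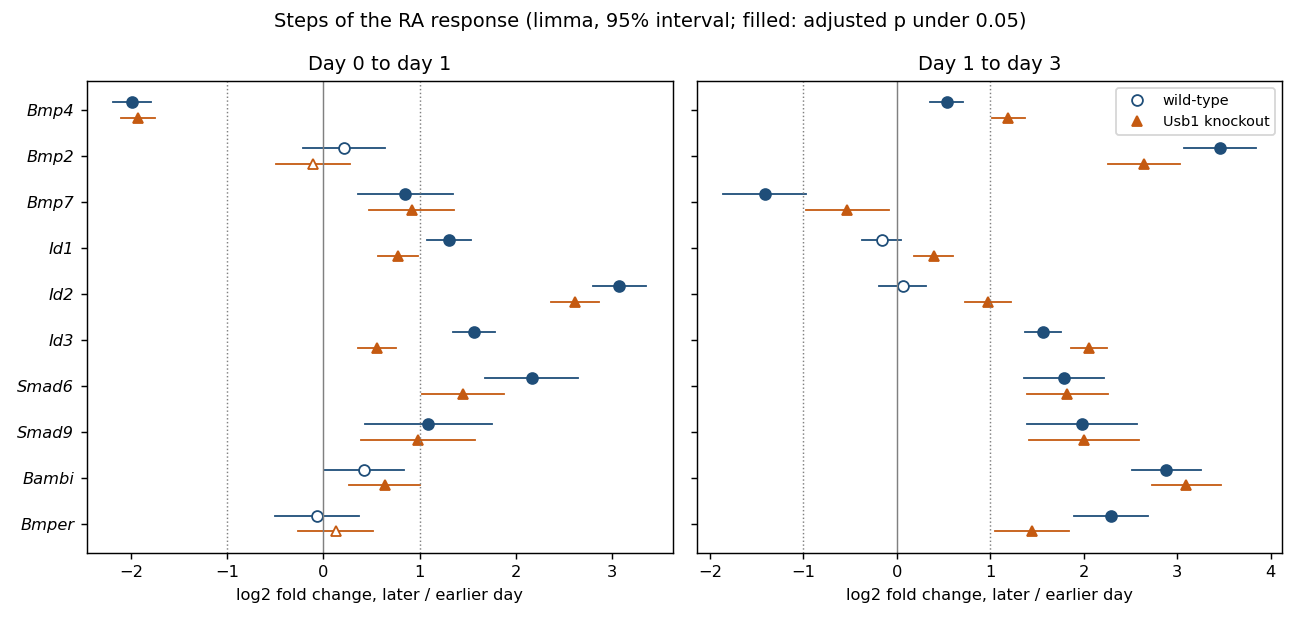
Log2 fold change of each member from day 0 to day 1 and from day 1 to day 3 of RA treatment, with 95% intervals from limma. Circles are WT and triangles KO cells, filled symbols had an adjusted p under 0.05, and dotted lines mark a 2-fold change. *Bmp4* fell at the first step in both genotypes, and *Id3* rose by 1.57 in WT but 0.56 in KO cells at that step.

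The steps shifted the makeup of the ligand and Id mRNA pools. The summed TPM of the 3 ligands was 125.5 ± 1.5 (SD, n = 2) in WT cells at day 0, 38.5 ± 1.02 (n = 3) at day 1 and 58.5 ± 4.09 (n = 3) at day 3. In KO cells it was 103 ± 3.66, 34.0 ± 3.64 and 70.6 ± 2.75 (n = 3 each). *Bmp4* made up 96.3% and 95.9% of it at day 0 in WT and KO cells. *Bmp7* made up 22.0% and 25.03% at day 1. *Bmp2* made up 20.9% ± 2.34 of it in WT and 8.38% ± 1.67 in KO cells at day 3 (n = 3 each). The *Id1* share of the summed Id mRNA fell from 79.3% to 65.4% and 48.9% over the 3 days in WT cells and from 76.5% to 67.4% and 48.4% in KO cells, while the *Id3* share rose from 12.9% to 32.0% (WT) and from 13.5% to 30.9% (KO) between day 1 and day 3. The summed Id mRNA at day 1 was 1203 to 1333 TPM in WT and 697 to 761 TPM in KO libraries, which did not overlap. No test was made on these shares and sums.

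**Figure D3:**
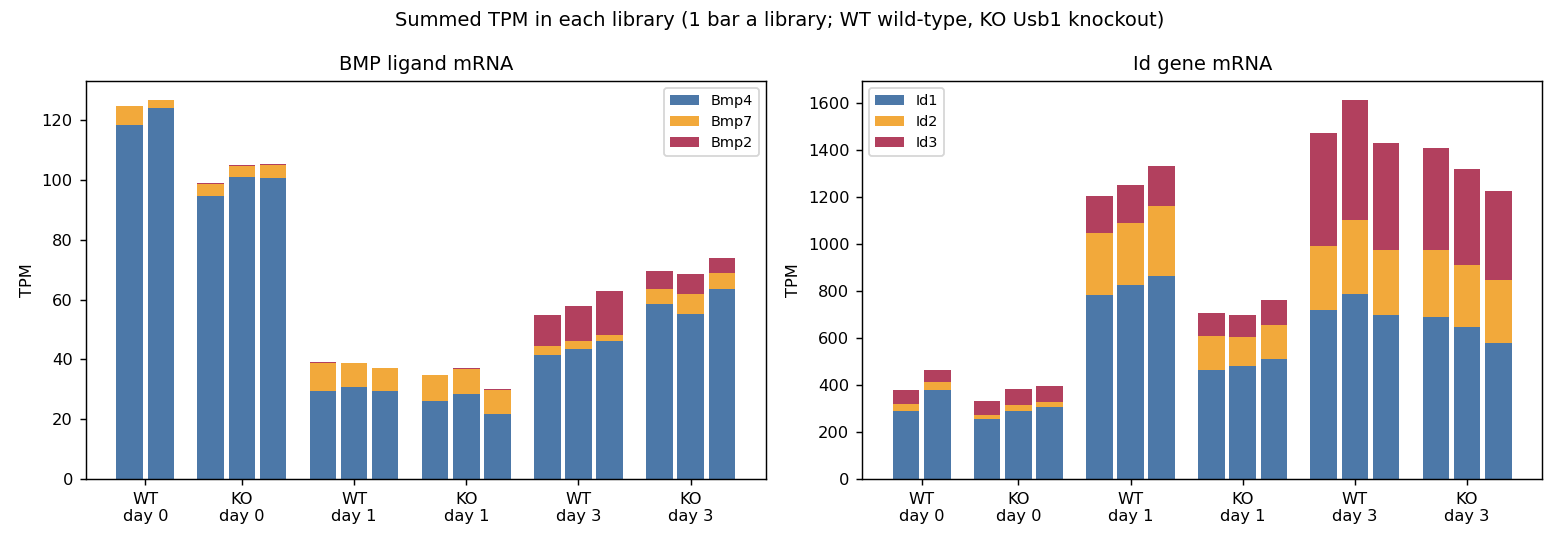
Summed TPM of the 3 BMP ligands (left) and the 3 Id genes (right), with 1 stacked bar for each of the 17 libraries and axes from 0. The Id bars of day 1 reach 1203 to 1333 TPM in WT and 697 to 761 TPM in KO cells, and *Bmp2* appears in the ligand bars at day 3.

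KO cells were then compared with WT cells at each day. At day 0 none of the 10 members was called, against 3.05% of all genes, and 1 passed, lower, against 11.9% of all genes (6.8% lower). *Id2* was 0.53 lower on the log2 scale (SE 0.13, adjusted p = 0.0182, limma), and its WT and KO libraries did not overlap. Its adjusted p was 0.0137 without WT replicate 1 at day 0 and 0.108 without WT replicate 2, and it was 0.0549 to 0.057 without KO replicate 1 or 3. With an equal median (adjusted p = 0.156), voom (adjusted p = 0.109) or the 5 libraries of day 0 alone (adjusted p = 0.242), *Id2* did not pass either. *Bmp4* was lower in each KO library than in either WT library (−0.29, adjusted p = 0.0559, and −0.32, adjusted p = 0.14, without WT replicate 1 at day 0). *Id1* (−0.23, adjusted p = 0.183) and *Id3* (0.27, adjusted p = 0.0992) did not pass with all libraries and did without WT replicate 1 at day 0 (−0.42, adjusted p = 0.0489, and 0.45, adjusted p = 0.0223). For *Smad6*, *Bambi* and *Bmp7*, the 95% intervals ran from −0.15 to 0.80, from −0.53 to 0.29 and from −0.56 to 0.43. The direction of these 3 turned with the WT library left out: without WT replicate 1 at day 0 they were at −0.24, 0.32 and 0.44 (adjusted p = 0.212 to 0.367), and without WT replicate 2 at 0.89, −0.57 and −0.56 (adjusted p = 8.55e-04 to 0.046, limma). *Smad9* was at −0.60 (adjusted p = 0.228) with all libraries, at −0.10 (adjusted p = 0.918) without WT replicate 1 and at −1.09 (adjusted p = 0.0273) without WT replicate 2.

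At day 1, *Id1*, *Id2* and *Id3* were lower in KO cells. None of the 10 members was called, against 2.22% of all genes, and these 3 passed, all lower, against 17.3% of all genes (13.6% lower). The log2 fold change was −0.76 for *Id1* (SE 0.10, adjusted p = 1.14e-04, limma), −0.99 for *Id2* (SE 0.12, adjusted p = 5.83e-05) and −0.74 for *Id3* (SE 0.09, adjusted p = 8.10e-05). The median over all genes tested was −0.13 in this comparison. With libraries scaled to an equal median, *Id1*, *Id2* and *Id3* were at −0.52, −0.74 and −0.50 (adjusted p = 0.027, 0.0073 and 0.0375, limma). For each of the 3 genes every KO library was below every WT library. *Bmp4* (−0.23, adjusted p = 0.0753), *Smad6* (−0.39, adjusted p = 0.217) and *Smad9* (−0.71, adjusted p = 0.0965) had estimates below 0 and did not pass. *Bmp7* was at 8.46 ± 0.897 TPM in WT and 8.47 ± 0.347 TPM in KO cells (SD, n = 3 each; 95% interval of the log2 difference −0.44 to 0.45), and *Bambi* differed by 0.10 (−0.27 to 0.47).

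At day 3 none of the Id genes passed, and the 3 ligands and *Bmper* did. None of the 10 members was called, against 1.29% of all genes, and 4 passed, 2 higher and 2 lower, against 7.52% of all genes (3.96% higher and 3.56% lower). *Bmp4* and *Bmp7* were higher in KO cells, by 0.43 (SE 0.08, adjusted p = 0.00519, limma) and 0.89 (SE 0.21, adjusted p = 0.0165). *Bmp2* and *Bmper* were lower, by −0.94 (SE 0.18, adjusted p = 0.00462) and −0.83 (SE 0.18, adjusted p = 0.0119). For each of the 4 genes the WT and KO libraries did not overlap. *Id1*, *Id2* and *Id3* had 95% intervals of −0.41 to 0.00, −0.32 to 0.18 and −0.44 to −0.05, with adjusted p from 0.136 to 0.834, and the KO libraries of *Id1* (579 to 689.8 against 700.3 to 789 TPM) and *Id3* (378 to 434 against 454 to 510.0 TPM) were still all below the WT libraries. *Smad6* (−0.35, adjusted p = 0.384), *Smad9* (−0.69, adjusted p = 0.173) and *Bambi* (0.31, adjusted p = 0.37) did not pass. Their WT and KO libraries did not overlap, which is a description and not a test. When only the 6 libraries of day 3 were fitted, none of the 4 passed (adjusted p = 0.0504 to 0.069), and with a pseudocount of 0.1 *Bmp2* (adjusted p = 0.24) and *Bmper* (adjusted p = 0.435) did not.

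**Figure D4:**
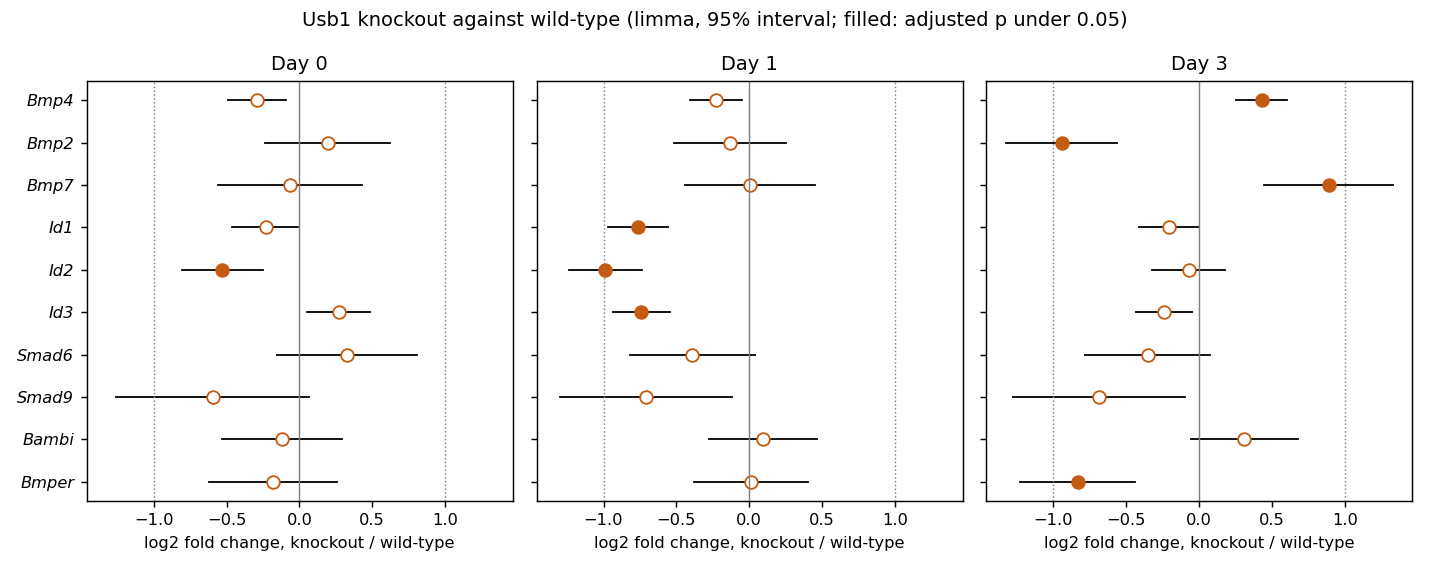
Log2 fold change of each member in KO against WT cells at day 0, 1 and 3, with 95% intervals from limma. Filled symbols had an adjusted p under 0.05 and dotted lines mark a 2-fold change. *Id1*, *Id2* and *Id3* lie between −0.99 and −0.74 at day 1, and *Bmp2*, *Bmp4*, *Bmp7* and *Bmper* are filled at day 3.

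Markers of other cell types differed beside these results, from day 0 on. The summed TPM of 9 primitive and visceral endoderm markers was 20.8 to 33.0 in WT and 12.46 to 16.8 in KO libraries at day 0, 87.1 to 89.5 and 23.2 to 25.6 at day 1, and 673 to 707.5 and 316 to 366 at day 3. Of these 9, 3, 7 and 8 were lower in KO cells by adjusted p on the 3 days and none was higher, against 6.8%, 13.6% and 3.56% of all genes lower. The day 0 marker values rest on 2 WT libraries and are not given without either of them. In these, *Sox7*, 1 of the endoderm markers, was at 6.79 and 16.7 TPM, against 6.83 to 7.76 TPM in the KO libraries of day 0. At day 1, 6 of the 9 averaged at least 1 TPM in each genotype, with *Afp* at 0 in both and *Ttr* at 0 in KO cells, and at day 3 all 9 did. The summed 6 trophoblast markers were at 25.2 to 27.0 in WT and 35.8 to 38.2 in KO libraries at day 0. Most of this sum was *Tfap2c*, which averaged 21.4 TPM in WT and 34.0 TPM in KO cells. Of 5 tested at day 0, *Tfap2c* alone had an estimate above 0 and alone passed, against 11.9% of all genes in either direction. At day 3 the sums were 28.3 to 32.0 in WT and 49.1 to 51.2 in KO libraries. There 2 of 5 tested passed, both higher, against 3.96% of all genes higher, and *Cdx2* averaged 8.34 TPM in WT and 4.69 TPM in KO cells. The 6 neural progenitor markers summed to 110 to 123 in WT and 134 to 145 in KO libraries at day 0. This was mostly *Tubb3*, at 99.9 and 116 TPM on average. At day 1 the sums overlapped, at 91.4 to 103 in WT and 96.9 to 102 in KO libraries. At day 3 they were 101 to 111 and 135 to 156, mostly *Nes* (87.3 and 112 TPM on average). Of 4 tested, 1 passed at day 0, higher, 1 at day 1, lower, and 2 at day 3, both higher. The shares of all genes that passed in either direction were 11.9%, 17.3% and 7.52%.

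The summed 8 fibroblast markers were at 58.8 to 72.7 in WT and 95.3 to 108 in KO libraries at day 3. Of the 6 tested, 5 passed, all higher, against 3.96% of all genes higher. The 6 mesoderm markers summed to 30.4 to 45.2 and 62.9 to 74.6 at day 3, a sum that is mostly *Hand1* (30.4 ± 5.85 TPM in WT and 64.8 ± 5.23 TPM in KO cells, n = 3 each). *Hand1* was the 1 mesoderm marker of 4 tested that passed, against 7.52% of all genes in either direction. The pluripotency sum was higher in KO cells at day 1 (10630 to 11530 against 8477 to 8945 TPM) and day 3 (1446 to 1798 against 1051 to 1275 TPM). Its largest part was *Dppa5a*, which averaged 5792 TPM in WT and 7192 TPM in KO cells at day 1 and did not pass. Of the 8 pluripotency markers, 4 were higher by adjusted p at day 1 and none lower, against 17.3% of all genes in either direction. At day 3, 6 were higher and 1 lower, against 3.96% and 3.56% of all genes. *Sox2* averaged 735 TPM in WT and 645 TPM in KO cells at day 1 and did not pass, and the marker that was lower at day 3 was *Klf4* (58.0 against 32.5 TPM). The part of these cell types in the differences of the members was not tested.

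Whether the RA steps differed between the genotypes was tested as an interaction. At the first step (day 1 against day 0), 1 member was called, with a lower change in KO cells, against 0.86% of all genes (0.672% lower). The rise of *Id3* was 1.01 smaller on the log2 scale in KO cells (−1.01, SE 0.13, adjusted p = 0.00203, limma). This was −1.19 (adjusted p = 0.000787) without WT replicate 1 at day 0 and −0.83 (adjusted p = 0.00121) without WT replicate 2. With libraries scaled to an equal median it was −0.89 (adjusted p = 0.0645). The interactions of *Id1* (−0.53, adjusted p = 0.0731) and *Id2* (−0.46, adjusted p = 0.187) did not pass, nor did that of *Bmp4* (0.06, 95% interval −0.20 to 0.33). These 3 were at −0.34, −0.27 and 0.10 without WT replicate 1 at day 0 and did not pass. Without WT replicate 2, *Id1* (−0.72, adjusted p = 0.00485), *Id2* (−0.64, adjusted p = 0.0314), *Bambi* (0.66, adjusted p = 0.0289) and *Smad6* (−1.28, adjusted p = 5.62e-04, limma) passed as well. The interactions of *Smad6*, *Smad9*, *Bambi* and *Bmp7* were at −0.15, −0.61, −0.23 and −0.43 without WT replicate 1 (adjusted p = 0.46 to 0.78).

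At the second step (day 3 against day 1), none of the members was called, against 2.25% of all genes, and 4 passed, all with a higher change in KO cells, against 7.61% of all genes (5.93% higher). The differences were 0.91 for *Id2* (SE 0.16, adjusted p = 0.00368, limma), 0.66 for *Bmp4* (SE 0.12, adjusted p = 0.0035), 0.56 for *Id1* (SE 0.14, adjusted p = 0.0238) and 0.50 for *Id3* (SE 0.13, adjusted p = 0.03). *Bmp2* (−0.81, adjusted p = 0.0675), *Bmper* (−0.85, adjusted p = 0.0638) and *Bmp7* (0.88, adjusted p = 0.0856) did not pass. The median over all genes was 0.13 in this comparison, and with libraries scaled to an equal median none of the 4 passed (adjusted p = 0.0563 to 0.545). Leaving out 1 library at a time, *Id2* and *Bmp4* passed each time, and *Id1* and *Id3* did not pass without some of the libraries. Both interactions share the day 1 libraries, so a low value of a gene in KO cells at day 1 enters the first as a fall and the second as a rise.

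The other genes of the pathway were taken from 6 lists by role, 61 genes in all, of which 51 were tested. In KO against WT cells, 1 was called higher and 1 lower at day 0, 0 and 3 at day 1 and 2 and 0 at day 3, against 3.05%, 2.22% and 1.29% of all genes called in either direction. Their median log2 fold change was −0.19, −0.34 and −0.04, against 0, −0.13 and 0 over all genes. From day 0 to day 3, 22 were called higher and 3 lower in WT cells, and 26 and 1 in KO cells, against 25.8% and 21.9% of all genes. At the first step the counts were 13 and 2 in WT and 10 and 2 in KO cells, against 13.9% and 6.95% of all genes, and at the second 14 and 2 in WT and 17 and 1 in KO cells, against 15.2% and 15.3%. The counts that use WT cells at day 0 rest on 2 libraries there and moved when WT replicate 1 was left out. Such a fit holds 1 WT library at day 0, so its counts are not given.

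Among the 11 other target genes, all tested, 6 were lower in KO cells at day 1 by an adjusted p under 0.05, against 13.6% of all genes lower, and none was higher. *Msx1*, a homeobox gene induced by BMP, was at 21.9, 18.0 and 19.6 TPM in WT and at 3.36, 2.16 and 3.78 TPM in KO cells at day 1 (−2.36, adjusted p = 2.27e-07, limma). *Dlx5*, another homeobox target, was at 5.34, 3.38 and 3.70 TPM in WT and at 0.844, 0.806 and 0.170 TPM in KO cells (−1.69, adjusted p = 2.30e-04). The WT and KO libraries of both genes did not overlap. *Tbx3* (−0.73, adjusted p = 2.91e-05), *Gata3* (−0.80, adjusted p = 0.00151), *Msx2* (−0.62, adjusted p = 0.0267) and *Dusp9* (−0.34, adjusted p = 0.00198) were the other 4. *Dusp9*, a phosphatase that limits ERK signalling, peaked at day 1 in both genotypes, at 2002 ± 107 TPM in WT and 1578 ± 60.7 TPM in KO cells (SD, n = 3 each).

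At day 3, 2 of the 11 other target genes were called higher in KO cells and none lower, against 1.29% of all genes called. *Gata2* was at 13.2, 13.5 and 15.8 TPM in WT and at 45.8, 43.7 and 39.0 TPM in KO cells (1.53, adjusted p = 1.99e-05, limma). *Dlx3* was at 4.23, 4.30 and 5.07 TPM in WT and at 12.6, 11 and 12.2 TPM in KO cells (1.23, adjusted p = 2.94e-04). At day 0, *Id4*, the fourth Id gene, was at 3.32 and 4.58 TPM in WT and at 8.05, 8.86 and 11 TPM in KO cells (1.06, adjusted p = 0.0019). Without WT replicate 1 at day 0 its difference was 0.88 (adjusted p = 0.0284) and was not called, and without WT replicate 2 it was 1.24 (adjusted p = 0.00127). *Gata3*, which specifies trophectoderm and surface ectoderm, reached 58.4 ± 3.03 TPM in WT and 71.6 ± 2.96 TPM in KO cells at day 3 from 0 and 0.0902 TPM on average at day 0. At the second step 5 of these genes had a called interaction, all higher in KO cells, against 2.25% of all genes called, with 2.25 for *Dlx5* and 2.06 for *Msx1* (adjusted p = 8.65e-04 and 5.53e-05).

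Of the 11 receptors and co-receptors, 6 were lower in KO cells at day 0 and 4 at day 1 by an adjusted p under 0.05, against 6.8% and 13.6% of all genes. The count at day 0 was smaller without WT replicate 1 at day 0. The type III receptor *Tgfbr3* was called lower on both days (−1.01, adjusted p = 0.00256, and −1.15, adjusted p = 2.20e-04, limma), and at day 0 its difference was −0.94 (adjusted p = 0.0284) without WT replicate 1. *Bmpr1a*, the type I receptor of BMP2 and BMP4, was at 59.7 ± 11.3 TPM in WT (n = 2) and 43.7 ± 2.20 TPM in KO cells at day 0 (−0.43, adjusted p = 0.0252) and at 88.0 ± 3.24 and 63.1 ± 3.37 TPM at day 1 (SD, n = 3 each; −0.48, adjusted p = 0.00529). By day 3 the means were 88.1 ± 6.51 and 98.0 ± 12.3 TPM, and the difference did not pass. Without WT replicate 1 at day 0, the day 0 difference of *Bmpr1a* was −0.24 (adjusted p = 0.279). The co-receptor *Rgma* rose from 1.24 to 34.0 TPM on average in WT cells by day 1 (4.02, adjusted p = 9.80e-10) and from 0.878 to 21.8 TPM in KO cells. *Acvrl1* fell over the 3 days from 10.4 to 1.35 TPM on average in WT cells (−2.30, adjusted p = 7.07e-08) and from 6.35 to 3.25 TPM in KO cells. *Eng*, its co-receptor, fell from 72.9 to 34.2 TPM in WT (−1.07, adjusted p = 1.67e-07). The WT changes of *Rgma*, *Acvrl1* and *Eng* were 3.62, −2.21 and −1.12 without WT replicate 1 at day 0. *Acvr2b* passed only from day 1 to day 3 in WT cells (−0.72, adjusted p = 0.0219).

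Of the 8 other Smads and Smad regulators, 4 were lower in KO cells at day 0 and 5 at day 1, against 6.8% and 13.6% of all genes, and none passed at day 3. The count at day 0 was smaller without either WT library of day 0. *Smad4*, the common partner, was at 110 ± 6.23 TPM in WT and 85.1 ± 4.96 TPM in KO cells at day 1 (SD, n = 3 each; −0.36, adjusted p = 0.00627, limma). The repressors *Ski* (−0.45, adjusted p = 0.00133) and *Skil* (−0.71, adjusted p = 7.30e-04) were lower as well. *Smad7*, the other inhibitory Smad, fell at the first step (−0.47 in WT and −0.70 in KO cells), the step at which *Smad6* rose. The WT fall of *Smad7* was −0.54 without WT replicate 1 at day 0.

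Of the 17 other extracellular antagonists and modulators, 12 were tested, and 9 were called higher and 1 lower in WT cells from day 0 to day 3, against 16.1% and 9.68% of all genes. Both counts were smaller without WT replicate 1 at day 0. *Fstl1* reached 352 ± 15.3 TPM in WT and 379 ± 25.5 TPM in KO cells at day 3 (SD, n = 3 each), and *Bmp1*, a protease that cleaves chordin and is not a BMP ligand, rose from 4.69 to 85.1 TPM on average in WT cells (3.93, adjusted p = 2.87e-12, limma, and 3.78 without WT replicate 1 at day 0). *Twsg1* was lower in KO cells at day 1 (−0.54, adjusted p = 0.00184), while the activin and BMP antagonist *Fst* was higher (0.89, adjusted p = 0.00216). *Grem1* averaged 1.48 TPM in WT cells at day 0 and under 0.2 TPM at the later days. Of the 11 other ligands, 6 were tested and none passed between the genotypes on any day. *Bmp6* rose to 5.596 ± 1.297 TPM in WT and 3.21 ± 0.903 TPM in KO cells at day 3, *Bmp8a* was at most 5.002 TPM on average and *Bmp8b* at most 2.20 TPM. Of the E proteins that Id proteins bind, *Tcf3* was at 160 to 256 TPM on average, *Tcf12* at 7.29 to 24.6 TPM and *Tcf4* at 8.32 to 10.3 TPM. *Tcf3* was lower in KO cells at day 1 (−0.32, adjusted p = 0.0226) and *Tcf4* passed in none of the comparisons.

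**Figure D5:**
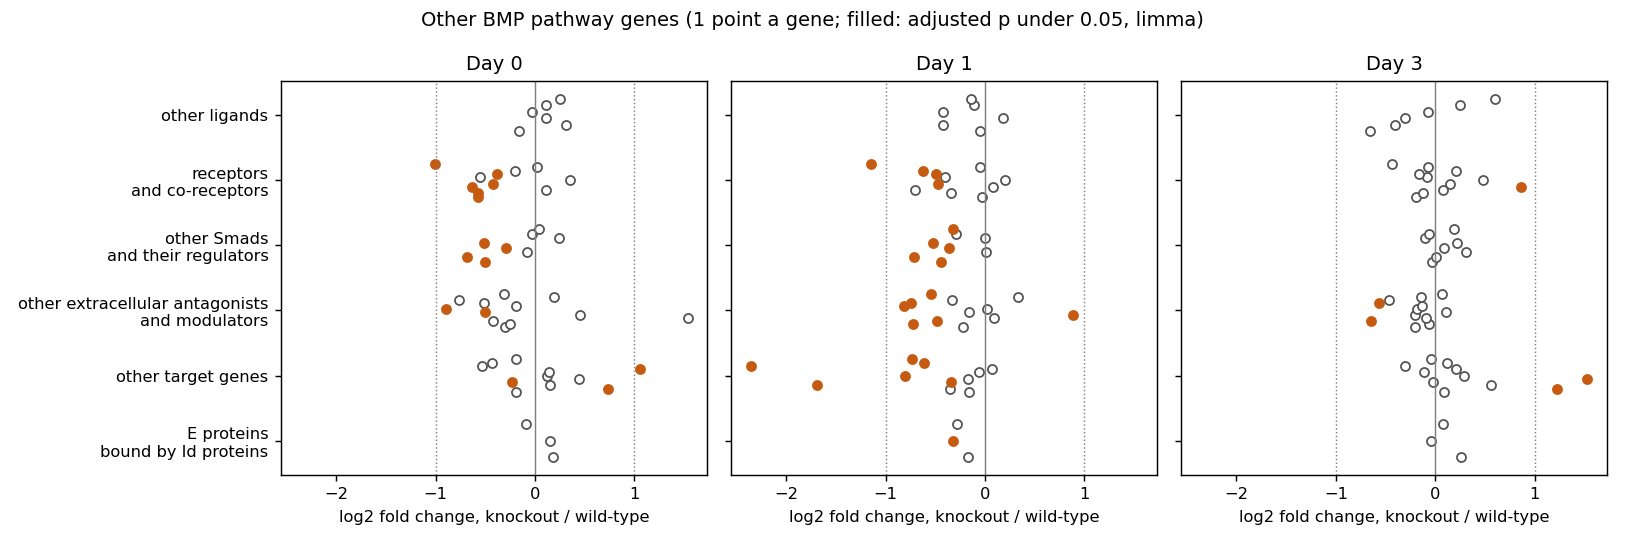
Log2 fold change of the other BMP pathway genes in KO against WT cells at day 0, 1 and 3, by role, with 1 point for each tested gene. Filled points had an adjusted p under 0.05 (limma) and dotted lines mark a 2-fold change. At day 1 the 2 points furthest to the left are *Msx1* (−2.36) and *Dlx5* (−1.69), and at day 3 the 2 furthest to the right are *Gata2* (1.53) and *Dlx3* (1.23).

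Across the 17 libraries, which share days and genotypes, the members fell into patterns that are described without a test. *Bmp2* and *Bmper*, both seen mainly at day 3, had a Pearson's r of 0.98 in log2(TPM + 1), and *Id1* and *Id2*, high from day 1, of 0.96. *Id3* had r of 0.96 with *Smad6* and with *Smad9* and 0.94 with *Bambi*. *Bmp4* had r of −0.74 with *Id2*, and *Bmp7* had r of −0.60 with *Bmper*. Among all tested genes outside the 10, those most like each member were *Dnm3* (r = 0.996) and *Slc24a3* (0.994) for *Bmp2*, *Stat3* (0.98) and *Dab1* (0.967) for *Bmp4*, and *Ccdc160* (0.969) and *Tmem45a* (0.933) for *Bmp7*. For the Id genes they were *Fam131a* (0.968) and *Thbs4* (0.966) for *Id1*, *Mrc2* (0.992) and *Bcar1* (0.991) for *Id2*, and *Nrep* (0.991) and *Rit1* (0.99) for *Id3*. For the others they were *Qsox1* (0.994) and *Tmem9b* (0.993) for *Smad6*, *Itpkb* (0.987) and *Ston1* (0.985) for *Smad9*, *Axl* (0.993) and *Tpm4* (0.992) for *Bambi*, and *Pcdh7* and *Itga1* (0.99 each) for *Bmper*.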

How the data were processed

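Bulk RNA-seq libraries (NEBNext Ultra kit, Illumina NovaSeq) of 17 cultures were analysed. The authors deposited TPM for each gene, calculated from its length and its mapped reads. The submitters' processing notes name HISAT2 2.1.0, StringTie 1.3.6 and GRCm38.p6. The authors tested differential expression with DESeq2, which needs counts, so limma (3.58.1, R 4.3.3) was fitted here to log2(TPM + 1) with a pseudocount of 1, the means of the 6 groups, a variance trend and Benjamini-Hochberg adjustment over all genes that reached a TPM of 1 in 2 or more libraries. It was tested on simulated data, with planted changes larger than the genotype differences of the members. Of the 54532 identifiers, 54495 are in GENCODE M21, whose exon lengths gave the reads behind each TPM, whole within 0.01 for 95.9% to 96.7% of genes above 0. A count of 0 was taken to allow up to 3 reads, under counting error alone, and more in WT replicate 1 at day 0. There were 11 comparisons. The members and lists were chosen with earlier results of these data known. Beside the 10 members, the genes named are, for each list of pathway genes, up to 3 of highest mean TPM, for each comparison up to 2 higher and 2 lower called genes of the largest change, and for each member the 2 tested genes of highest Pearson's r. Where text gives every gene of a list that passed or correlations between members, those were chosen after their values were seen. The lists were other ligands, receptors and co-receptors, Smads and their regulators, antagonists and modulators, target genes, E proteins, and markers of pluripotent, endoderm, fibroblast, trophoblast, neural and mesoderm cells. The alternatives were a pseudocount of 0.1, other filters, thresholds and scalings, a robust variance model, voom on the recovered reads, the libraries of a comparison alone, a replicate block and leaving out each library; leaving out a WT library of day 0 for the pathway lists was chosen after seeing the data. Promoter sequences are from RefSeq (GRCm38.p6). Tables and figures were made in Python 3.11.15 with pandas 2.3.3, numpy 2.4.6 and matplotlib 3.10.9.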

Additional observations from a re-analysis of the deposited data

Results flagged for a closer look

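The change of *Id3* from day 0 to day 1 of RA treatment differed between the genotypes by −1.01 on the log2(TPM + 1) scale (SE 0.13, adjusted p = 0.00203, limma interaction). *Id3* was at 61.6 and 47.6 TPM in WT cells and 59.9, 68.3 and 68.8 TPM in KO cells at day 0, and at 154, 162 and 172 TPM against 96.3, 92.2 and 102 TPM at day 1, where the genotypes did not overlap. With libraries scaled to an equal median the difference was −0.89 with an adjusted p of 0.0645.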

How the results depend on the processing

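Of the 110 results of the 10 members in the 11 comparisons, 64 had an adjusted p under 0.05. Over their 1095 values under the alternatives, the direction never reversed, and the adjusted p stayed under 0.05 in 1046 and not in 49. The estimates of the other 46 results changed sign in 16 of 500 values under other settings and in 29 of 344 with 1 library left out. Part of these values could not change. Other thresholds reuse the main fit, and other filters, the robust variance model and the libraries of a comparison alone keep its estimates. The 64 were also chosen because they passed, so these tallies are no measure of how stable the results are. The number of members called in KO against WT cells was 0 at each day. By adjusted p alone it was 1, 3 and 4 at day 0, 1 and 3, against 11.9%, 17.3% and 7.52% of all genes. With a 1.5-fold threshold it was 3 at day 1 and 3 at day 3, with a pseudocount of 0.1 it was 1 at day 3, and with voom it was 3 at day 3. A looser threshold calls more of all genes too, and the shares of all genes under settings other than adjusted p alone are not given here. From day 0 to day 1 in KO cells 3 were called, but 5 with a pseudocount of 0.1, 8 by adjusted p alone (27.7% of all genes), 7 with a 1.5-fold threshold and 5 with voom. The 1 call at the first interaction became 0 with an equal median and with voom (*Id3*, −0.98). The 0 at the second became 4 by adjusted p alone (7.61% of all genes) and 2 with a 1.5-fold threshold. With 1 library left out, these counts ranged from 0 to 1 in KO against WT cells at each of the 3 days, from 3 to 4 for KO cells from day 0 to day 1, from 0 to 1 at the first interaction and stayed at 0 at the second. The call at day 1 was *Id2*, which reached −1.01 to −1.03 without KO replicate 1 or 3 or WT replicate 1 or 2 of day 1. That at day 3 was *Bmp2*, −1.05 without KO replicate 2 or WT replicate 1 of day 3. *Id1*, *Id2* and *Id3* in KO against WT cells at day 1 kept an adjusted p under 0.05 under every alternative, with a highest value of 0.0375. *Bmper* has no value under a filter of TPM of at least 5. Over all genes, replicate numbers showed no sign of pairing. Deviations from group means correlated at −0.13 to 0.12 between libraries of the same number (median −0.0035). Between libraries of other numbers they correlated at −0.12 to 0.11 (median 0.0044). Pairing limited to few genes was not tested. A replicate block moved no count by over 1.5 times, and *Id3* at the second interaction had an adjusted p of 0.0514 with it. The depth limits what can be said of *Bmp2*, *Bmper* and *Smad9* before day 3, which rested on 0 to 88 reads per library.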
